A study of Mus musculus with 8 samples.

Results

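Cholesterol synthesis enzymes were followed in the brain cortex of mice fed a normal or a high fat diet. The 8 enzymes Hmgcs1, Idi1, Fdft1, Sqle, Lss, Cyp51, Msmo1 and Dhcr7 were picked by gene name. All 8 were found among the 13996 genes of the expression table, once each, and all 8 were among the 13982 genes that could be tested. RNA was sequenced from the cortex of 4 mice on each diet, 1 library per mouse. All mice were male C57BL/6 animals of 16 weeks, and the labels name no transgene or deleted gene. They had received either a conventional diet or a diet with 60% fat from the age of 8 weeks, for 8 weeks. The comparison asks which genes differ in cortex after the high fat diet.

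Brain makes its own cholesterol, because the lipoproteins of the blood hardly cross the blood-brain barrier. The synthesis runs from acetyl-CoA through mevalonate to isoprenoid units, which are joined to squalene, closed into the sterol ring system and trimmed to cholesterol. In the adult brain astrocytes supply much of the sterol and oligodendrocytes hold most of it in myelin, and the transcription factor SREBP2 (gene Srebf2) switches the enzymes of the pathway on together when sterols in the cell membranes are low.

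On the high fat diet 4 enzymes were lower, Hmgcs1, Idi1, Cyp51 and Msmo1, and 1 was higher, Fdft1. Sqle, Lss and Dhcr7 did not pass the test. The mean of Hmgcs1 decreased by 14.7%, that of Idi1 decreased by 27.1% and that of Fdft1 was 18.0% higher. None of the 8 was called with a change over 1.5 times. Levels are in FPKM, a count of sequenced fragments scaled for transcript length and for the size of the library. Differences are log2 fold changes of FPKM + 0.1, high fat minus normal, with the standard error (SE) from limma, and a gene was called at an adjusted p below 0.05 (two-sided, Benjamini-Hochberg over all genes tested).

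The count has to be read against the whole table, in which many genes differed. Of the 8 enzymes, 5 were called (62.5%), while 33.1% of all genes tested were called. By direction, 4 enzymes were lower and 1 was higher, beside 15.3% of all genes called lower and 17.7% called higher. The values of the diets did not overlap for 5 enzymes, the same 5, and for 31.9% of all genes. A call with a change over 1.5 times was made for 0 of the 8 and for 7.13% of all genes. The median difference of the 8 enzymes was -0.13 and that of all genes 0.0031.

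The cortex libraries differed between mice in markers of other brain regions, within a diet as well, and some of these markers also differed between the diets. Striatal markers such as Drd2 were lower on the high fat diet in 7 of 7 genes, with a summed level of 190.1 to 350 FPKM in the normal mice and 52.5 to 62.3 FPKM in the high fat mice. All 12 markers of oligodendrocytes and myelin were lower, with sums of 1369 to 2163 and 893 to 1218 FPKM. Cerebellar markers (3 of the 6 tested lower) summed to 248 and 342.5 FPKM in normal mice 2 and 3, to 80.8 FPKM in normal mouse 4, to 24.2 FPKM in normal mouse 1 and to 22.1 to 26.4 FPKM in the high fat mice. The cerebellar gene Gabra6 was at 0.0 to 0.2 FPKM in the high fat mice. Thalamic markers (3 of 6 lower) summed to 38.3 to 100 and 31.9 to 34.6 FPKM, and were highest in normal mice 2 and 3. Markers of cortical projection neurons were higher in 4 of 6 genes, with sums of 62.8 to 99.4 and 119 to 139 FPKM, and were lowest in normal mice 2 and 3. Choroid plexus markers (2 of 5 lower) reached 948 FPKM in high fat mouse 4, against 22.8 to 79.0 FPKM in the other high fat mice and 345 to 730 FPKM in the normal mice. In tissue of mixed cells, fewer cells of a type and less RNA per cell cannot be told apart. The part of these regions and cells in the differences of the enzymes was not tested, apart from fits with a marker list as a covariate or without normal mice 2 and 3.

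**Figure D1:**
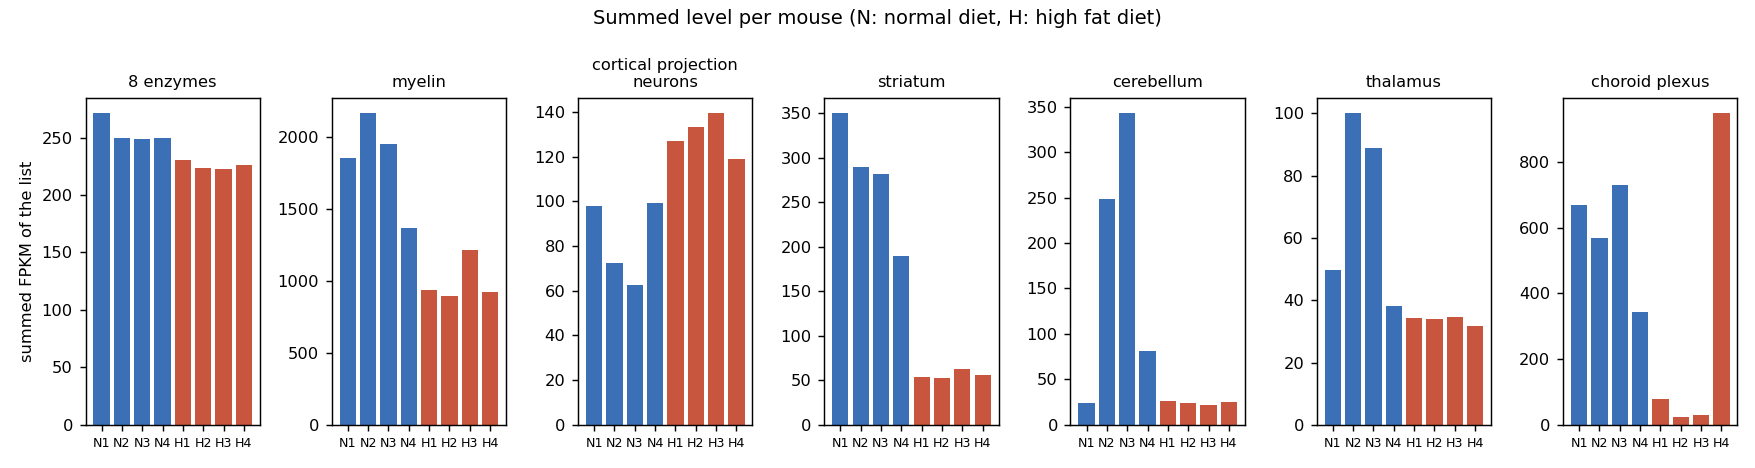
Summed FPKM of the 8 enzymes and of 6 marker lists, 1 bar per mouse, with each vertical axis starting at 0 on its own scale (N, normal diet, blue, H, high fat diet, red). The enzymes sum to 249 to 271 FPKM in the normal mice and 223 to 230 FPKM in the high fat mice, and the striatal and cerebellar lists vary far more.

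Hmgcs1 makes HMG-CoA, an early intermediate of the pathway, in the cytosol. It was at 124.8, 114.5, 115.5 and 113.2 FPKM in normal mice 1 to 4 and at 100.7, 101.8, 98.5 and 98.0 FPKM in high fat mice 1 to 4. Every high fat mouse was below every normal mouse, and normal mouse 1 stood above the other normal mice. The difference was -0.23 (SE 0.044, 95% interval -0.33 to -0.13, limma adjusted p = 0.00463).

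Idi1 turns isopentenyl diphosphate into its isomer, so that isoprenoid units can be joined. It was at 5.5, 5.3, 5.1 and 5.1 FPKM in the normal mice and at 4.0, 3.5, 4.0 and 3.8 FPKM in the high fat mice. The diets did not overlap, and the normal mice lay close together, although steps of 0.1 FPKM, to which the table is rounded, are coarse at this level. The difference was -0.45 (SE 0.072, 95% interval -0.61 to -0.29, limma adjusted p = 0.00234). In the annotation 21.3% of the 50-base words of its longest coding transcript occur also in transcripts of 4 other genes, Gm13502, Gm35570 and Gm7654 among them, so its level is uncertain where reads were shared out between copies.

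Fdft1 joins a pair of farnesyl diphosphates into squalene, the first step that leads only to sterols. It was at 27.9, 24.2, 23.9 and 26.3 FPKM in the normal mice and at 30.9, 29.2, 30.4 and 30.2 FPKM in the high fat mice. The diets did not overlap, and the high fat mice were nearer to one another than the normal mice were. The difference was 0.24 (SE 0.056, 95% interval 0.11 to 0.37, limma adjusted p = 0.0110). Among the normal mice Fdft1 was lower in mice 2 and 3, the mice with the highest cerebellar and thalamic markers and the lowest cortical projection neuron markers. Without these 2 mice its difference was 0.15 (limma adjusted p = 0.0653) and with the cerebellar list as a covariate it was 0.05 (limma adjusted p = 0.687). With other lists it was 0.06 (projection neurons), 0.17 (myelin) and 0.41 (striatum, SE 0.32), and it was not called in any of these fits. The cause of these changes was not tested. The level of Fdft1 is uncertain too, since 10.9% of its 50-base words occur also in Gm6781.

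Sqle adds oxygen to squalene and is one of the controlled steps of the pathway. It was at 24.9, 24.4, 23.3 and 24.4 FPKM in the normal mice and at 25.7, 23.2, 22.4 and 24.3 FPKM in the high fat mice. The high fat mice lay on both sides of the normal mice. The difference was -0.02 (SE 0.052, limma adjusted p = 0.765), with a 95% interval of -0.14 to 0.09 that leaves room for a small change either way.

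Lss closes the squalene epoxide into lanosterol, the first sterol. Its levels were 8.1, 7.6, 7.7 and 8.2 FPKM in the normal mice and 8.3, 8.8, 8.4 and 8.1 FPKM in the high fat mice. The ranges overlapped at their edges, with high fat mouse 4 level with normal mouse 1. The difference was 0.09 (SE 0.055, 95% interval -0.04 to 0.21, limma adjusted p = 0.246).

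Cyp51 is the cytochrome P450 that removes a methyl group from lanosterol. It was at 22.7, 24.2, 24.0 and 22.3 FPKM in the normal mice and at 17.2, 17.4, 16.4 and 18.0 FPKM in the high fat mice. The gap between the lowest normal mouse and the highest high fat mouse was wide beside the spread within either diet. The difference was -0.43 (SE 0.049, 95% interval -0.54 to -0.32, limma adjusted p = 0.000769), the smallest adjusted p of the 8. Normal mice 2 and 3 had more Cyp51 than normal mice 1 and 4, opposite to Fdft1, and without them the difference remained called.

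Msmo1 oxidises the methyl groups at carbon 4 of the sterol ring, after Cyp51 in the pathway. It was at 47.7, 41.3, 40.2 and 42.8 FPKM in the normal mice and at 34.2, 31.9, 34.1 and 35.2 FPKM in the high fat mice. Normal mouse 1 was again the highest of all, and the diets did not overlap. Among the normal mice Msmo1, like Fdft1, was lowest in mice 2 and 3, and without them its difference was -0.42 and remained called. The difference was -0.34 (SE 0.060, 95% interval -0.48 to -0.21, limma adjusted p = 0.00328).

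Dhcr7 reduces 7-dehydrocholesterol to cholesterol at the end of the pathway. It was at 9.3, 8.3, 9.4 and 7.4 FPKM in the normal mice and at 9.3, 7.8, 8.6 and 8.6 FPKM in the high fat mice. The high fat mice lay inside the range of the normal mice. The difference was -0.00033 (SE 0.088, 95% interval -0.20 to 0.20, limma adjusted p = 0.998), the widest interval of the 8.

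**Figure D2:**
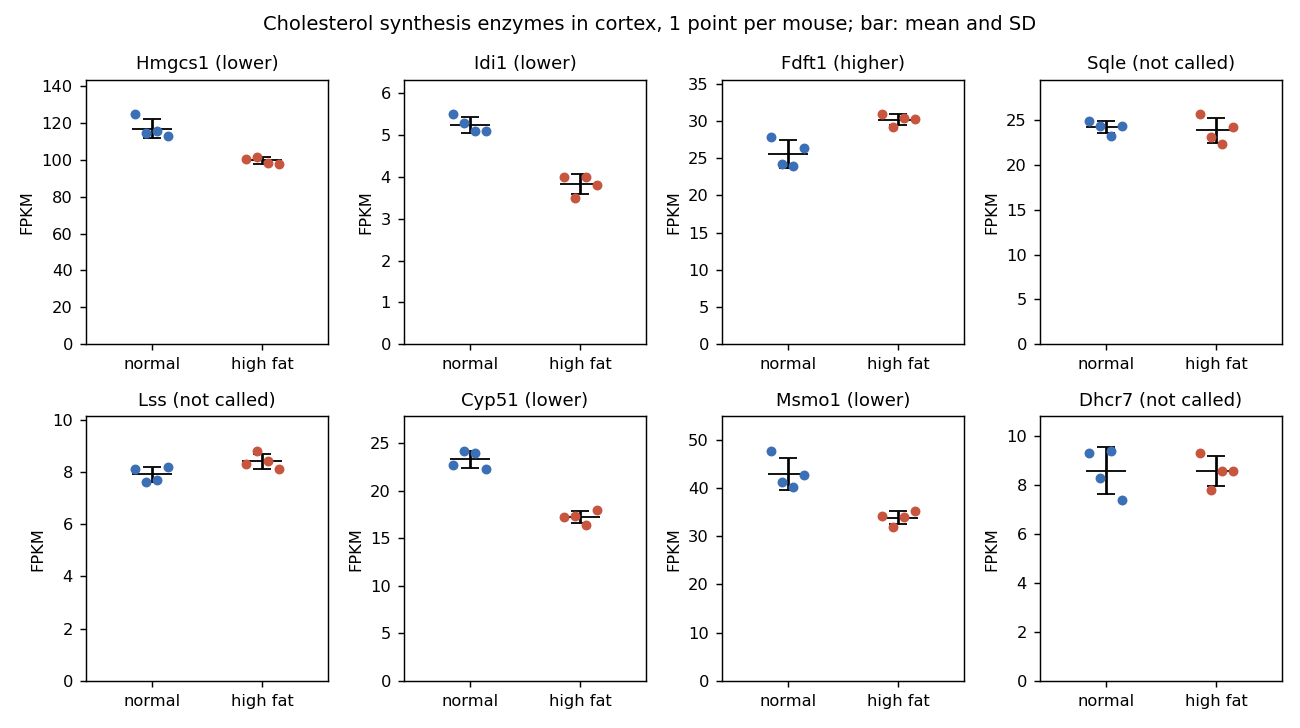
Level in FPKM of each of the 8 enzymes, 1 point per mouse (blue, normal diet, red, high fat diet), with the mean and SD of 4 mice as bars and axes that start at 0. Hmgcs1, Idi1, Cyp51 and Msmo1 lie lower in every high fat mouse, Fdft1 lies higher, and Sqle, Lss and Dhcr7 overlap.

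The enzymes kept the same order of mean levels on either diet, but some distances changed. In the normal mice Hmgcs1 (117 FPKM ± 5.28, SD, n = 4) stood far above Msmo1 (43.0 ± 3.31), which in turn did not overlap Fdft1 (25.6 ± 1.88). Sqle (24.2 ± 0.676) and Cyp51 (23.3 ± 0.942) followed, each overlapping the one before it. Dhcr7 (8.60 ± 0.942) and Lss (7.90 ± 0.294) overlapped too, and Idi1 (5.25 ± 0.191) was lowest. In the high fat mice Hmgcs1 was at 99.8 FPKM ± 1.80 (SD, n = 4) and Msmo1 at 33.9 ± 1.39. Fdft1 (30.2 ± 0.714), Sqle (23.9 ± 1.43) and Cyp51 (17.2 ± 0.661), near one another on the normal diet, were there separated with no overlap. Dhcr7 (8.58 ± 0.613) and Lss (8.40 ± 0.294) still overlapped, and Idi1 was at 3.83 ± 0.236 FPKM.

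Ratios of one enzyme to the one before it, taken within each mouse, depend little on the scale of a library. They are ratios of FPKM + 0.1, so they differ slightly from those of the plain FPKM. Fdft1 relative to Idi1 was 4.50 to 5.08 in the normal mice and 7.44 to 8.14 in the high fat mice, a log2 difference of 0.69. This ratio is given with no test, since Fdft1 was higher and Idi1 lower in every high fat mouse, which fixes its separation. The 6 other ratios were compared by an exact permutation test over the 70 ways to divide 8 mice, two-sided, whose smallest possible p is 0.0286, and p-values were adjusted over the 6. Cyp51 relative to Lss was 2.70 to 3.16 and 1.94 to 2.21, a difference of -0.52 (exact p = 0.0286, adjusted 0.0429). Idi1 relative to Hmgcs1 (-0.22), Sqle relative to Fdft1 (-0.26) and Dhcr7 relative to Msmo1 (0.34) also separated the diets, each with the smallest possible p (exact p = 0.0286, adjusted 0.0429). The ratio tests were added after seeing the data and reuse the levels of the single enzymes. Cyp51, Fdft1 and Msmo1 alone already separated the diets, and their partners Lss, Sqle and Dhcr7 were not called. The p-values of the ratios of these pairs are therefore no evidence beyond that of the single enzymes. Idi1 and Hmgcs1 were both lower with no overlap, so their ratio compares the sizes of their decreases. Lss relative to Sqle differed by 0.11 (exact p = 0.2, adjusted 0.24) and Msmo1 relative to Cyp51 by 0.09 (exact p = 0.314, adjusted 0.314), and for both the diets overlapped.

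**Figure D3:**
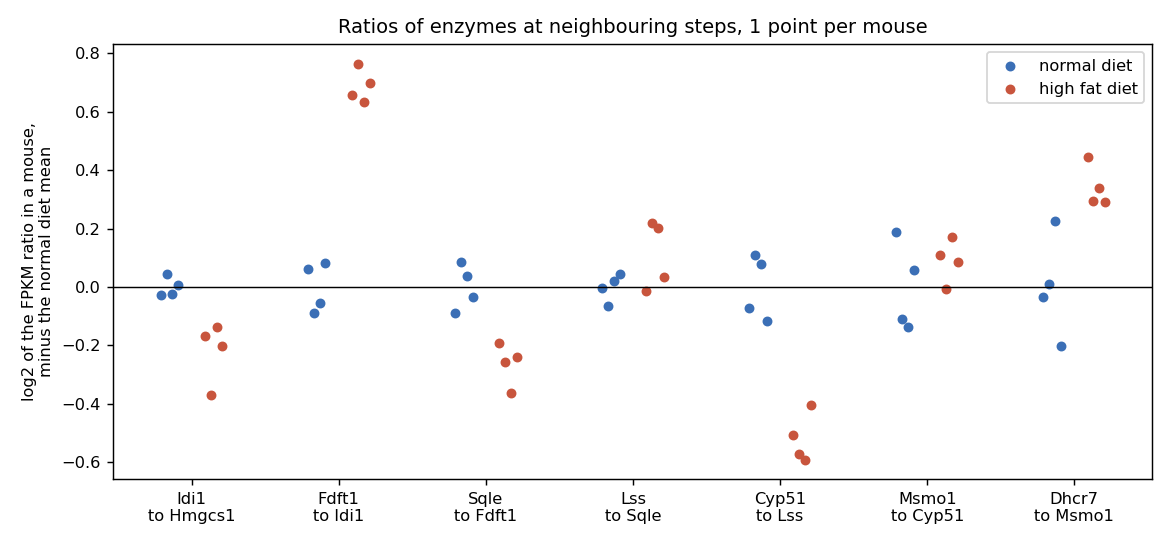
Log2 of the FPKM ratio of each enzyme to the enzyme before it, 1 point per mouse, less the mean of the normal mice (blue, normal diet, red, high fat diet). Fdft1 to Idi1 separates the diets most, by 0.69, and Lss to Sqle and Msmo1 to Cyp51 overlap.

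Of 12 other genes of the pathway, 4 were called, all 4 lower (33.3%, close to the 33.1% of all genes called, and beside 15.3% called lower). Upstream, Mvd, which makes isopentenyl diphosphate for Idi1, was lower, at 12.4 to 14.4 FPKM in the normal mice and 8.9 to 11.2 FPKM in the high fat mice (-0.42, limma adjusted p = 0.00424). Hmgcs1, Mvd and Idi1 were thus called lower, while Mvk and Pmvk between them (-0.05 and -0.12) and Acat2 before them (-0.16) were not called.

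Among the later enzymes, Sc5d, which makes the substrate of Dhcr7, was at 27.9 to 29.1 FPKM in the normal mice and 22.1 to 22.8 FPKM in the high fat mice (-0.35, limma adjusted p = 0.000729). Ebp, a sterol isomerase, was at 10.4 FPKM ± 1.07 and 7.83 FPKM ± 0.189 (SD, n = 4 each) (-0.40, limma adjusted p = 0.00374). Lbr, a sterol reductase that is also a protein of the nuclear envelope, was at 5.0 to 6.1 FPKM and 4.2 to 4.7 FPKM (-0.26, limma adjusted p = 0.0337). Fdps, Tm7sf2, Nsdhl, Hsd17b7 and 0610007P14Rik (the mouse gene of ERG28) were not called. Over the 8 enzymes and these 12 genes, 20 in all, 9 were called, 8 lower and 1 higher, and the median difference was -0.16.

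**Figure D4:**
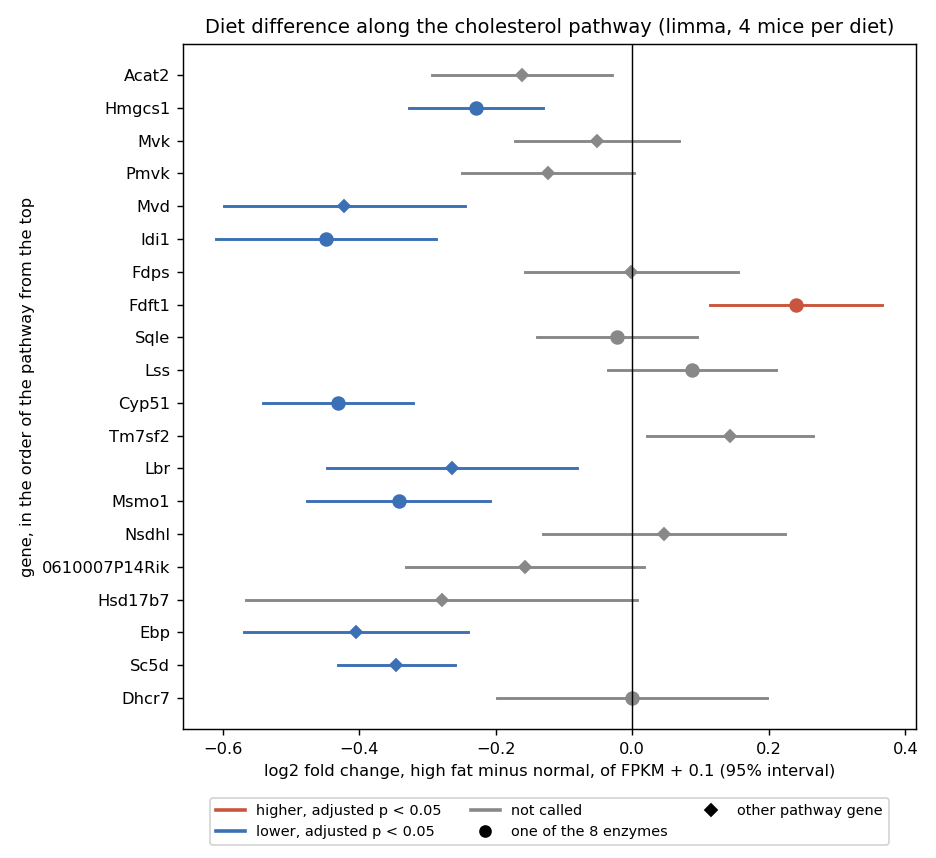
Log2 fold change (high fat minus normal) of 20 pathway genes in pathway order, with unadjusted 95% intervals from limma, circles for the 8 enzymes, diamonds for the other genes, and colour for the call. Genes called lower lie early and late in the pathway, and Fdft1 (0.24) is the 1 gene of these 20 called higher.

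Of 11 genes that sense sterols or share the SREBP system, 2 were called higher and 2 lower and 7 were not called, a share near the 33.1% of all genes called. Srebf2 itself rose by 0.58 on the log2 scale (limma adjusted p = 0.00280), at 19.6 to 25.5 FPKM in the normal mice and 30.0 to 38.2 FPKM in the high fat mice, and Scap, which carries it to the Golgi, rose by 0.23 (limma adjusted p = 0.00689). Its known target Insig1, which holds Scap back, was lower (-0.39, limma adjusted p = 0.00120), as was the desaturase Scd2 (-0.27, limma adjusted p = 0.0185). Like Fdft1, Srebf2 was lowest in normal mice 2 and 3.

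Of the genes that remove cholesterol, Cyp46a1, the neuronal hydroxylase that starts the export of cholesterol from brain, rose by 0.35 (limma adjusted p = 0.00825), and it too was lowest in normal mice 2 and 3. The transporter Abcg4 rose by 0.46 (limma adjusted p = 0.00161) and the transporter Abca1 was lower (-0.47, limma adjusted p = 0.00145). With the LXR receptor gene Nr1h2 (0.35, limma adjusted p = 0.0299), 3 of the 9 genes tested in this list were called higher and 1 lower, beside 17.7% and 15.3% of all genes. Genes that use mevalonate for other products gave 1 call in 8, fewer than the 33.1% of all genes called, and this was Dhdds, of dolichol synthesis (0.17, limma adjusted p = 0.0325).

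The markers of other cells that make or hold cholesterol gave these counts, to be read against the 33.1% of all genes called (17.7% higher and 15.3% lower). Of the astrocyte markers 4 of 9 were lower and 1 was higher, with sums of 1282 to 1491 FPKM in the normal mice and 1243 to 1319 FPKM in the high fat mice. Of the markers of oligodendrocyte precursors and newly formed oligodendrocytes, 3 of 6 were lower and 1 higher, with sums of 77.7 to 109 and 61.8 to 70.6 FPKM. Neuronal markers gave 1 higher and 2 lower of 8, near the share of all genes, and microglial markers 0 of 6. Apart from these cells, blood markers were lower in 5 of 5, with sums that overlapped, at 239.2 to 479.7 and 199.1 to 247.4 FPKM. Clock genes of the PER and REV-ERB phase were higher in 7 of 8. The clock genes summed to 153.1 to 177.9 FPKM in the normal mice and 237.8 to 248.3 FPKM in the high fat mice. Diet and the phase of the clock thus cannot be told apart. No fit held the clock list, and its part in the differences of the enzymes was not tested.

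When the mean log2 level of a marker list was added to the limma fit, the enzymes responded differently. With the cerebellar list, Hmgcs1 (-0.32) and Msmo1 (-0.53) remained called, while Idi1 (-0.52, limma adjusted p = 0.0615), Cyp51 (-0.34, limma adjusted p = 0.0523) and Fdft1 (0.05, limma adjusted p = 0.687) did not. Without normal mice 2 and 3, Hmgcs1, Idi1, Cyp51 and Msmo1 remained called. With the myelin list 0 of the 8 were called, as with the list of cortical projection neurons, and the differences were then -0.22 and -0.27 for Hmgcs1, -0.33 and -0.47 for Idi1, -0.40 and -0.30 for Cyp51, and -0.35 and -0.48 for Msmo1, on wider errors. With the striatal list 0 of the 8 were called, and Hmgcs1 (0.07, SE 0.23), Msmo1 (0.06, SE 0.31), Sqle (0.15, SE 0.29), Lss (-0.09, SE 0.31) and Dhcr7 (0.96, SE 0.38) changed sign. Fdft1 was at 0.17 with the myelin list, 0.06 with the projection neuron list and 0.41 (SE 0.32) with the striatal list. The mean log2 levels of the cerebellar, myelin, projection neuron and striatal lists each did not overlap between the diets, so that diet and these markers cannot be told apart. For the cerebellar list the summed FPKM did overlap, through normal mouse 1.

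**Figure D5:**
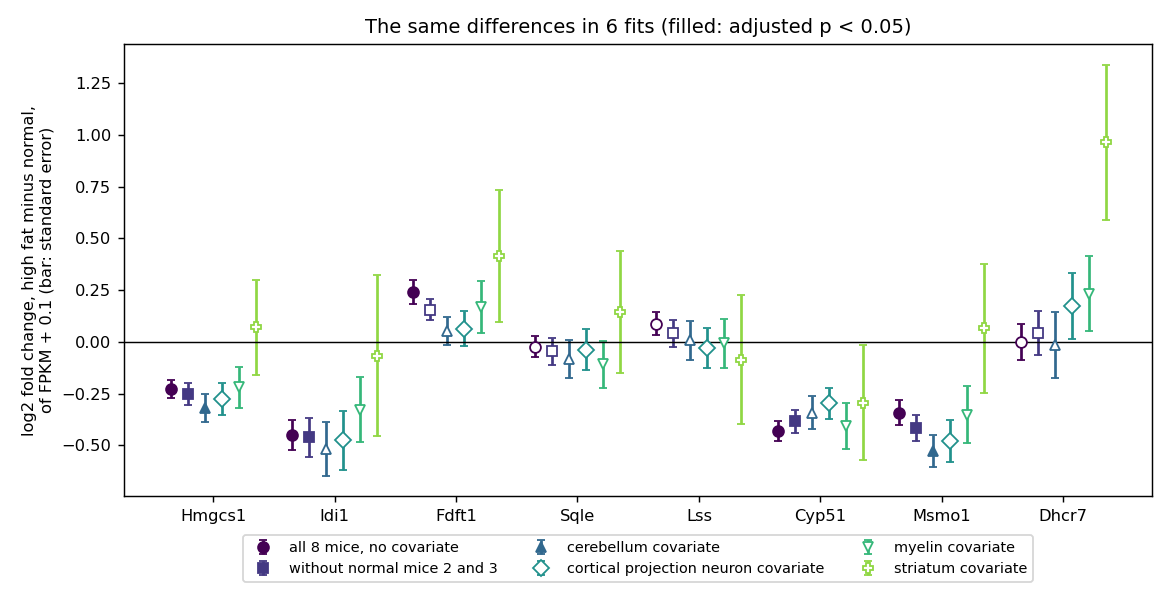
Difference of each enzyme (log2 fold change, high fat minus normal, bars are standard errors) in 6 limma fits (all mice, without normal mice 2 and 3, and with the cerebellar, projection neuron, myelin or striatal list), with filled symbols for an adjusted p below 0.05. Idi1 and Cyp51 stay below 0 in all 6, and Hmgcs1 and Msmo1 in all but the striatal fit. Fdft1 goes from 0.24 to 0.05 with the cerebellar list and to 0.41 with the striatal list, not called in either.

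The 8 enzymes varied little in common within a diet. After the mean of each diet was taken away, the 28 pairs of enzymes had a median Pearson r of 0.24 over the 8 mice, from -0.66 for Cyp51 and Lss to 0.91 for Msmo1 and Fdft1, and 20 were above 0. The mice share their depth, scale and dissection across these pairs, so r is a description and has no test. The genes outside the lists whose deviations were most like the mean of the 8 enzymes, of 6801 genes with a mean of at least 10 FPKM, were Hras (r = 0.98), St8sia3 (0.96), Guk1 (0.96), Ramp1 (0.96) and Vps4a (0.96), none of them called between the diets. In so wide a search over 8 mice the highest r is high even for unrelated genes. These values too are a description with no test.

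Several of the genes overlap others on the opposite strand, and no source used here tells how the counting treated strand. On GRCm38 (GENCODE M21 annotation) Hmgcs1 lies at chr13:119690379-119708260 on the plus strand, with 11 exons in its longest coding transcript, and shares 557 exonic bases with the antisense gene Gm48342. Fdft1 lies at chr14:63145150-63179578 on the minus strand, with 10 exons, and shares 774 exonic bases with Ctsb. Ctsb, a lysosomal protease, was at 91.6 to 97.5 FPKM in the normal mice and 78.3 to 87.7 FPKM in the high fat mice (-0.22, limma adjusted p = 0.00777), opposite in direction to Fdft1. Cyp51 lies at chr5:4081145-4104746 on the minus strand, with 10 exons, and shares 166 exonic bases with Akap9, which was lower as well (-0.43, limma adjusted p = 0.00178). Idi1 lies at chr13:8885501-8892451 on the plus strand, with 5 exons, and shares 323 exonic bases with Gm48574. Lss lies at chr10:76531588-76557138 on the plus strand, with 22 exons, and shares 381 exonic bases with 4930483K19Rik. Gm48342, Gm48574 and 4930483K19Rik were not found by name among the genes with expression values. Sqle (chr15:59315077-59331192, plus strand, 11 exons), Msmo1 (chr8:64718139-64733792, minus strand, 6 exons) and Dhcr7 (chr7:143823145-143848410, plus strand, 9 exons) overlap no other annotated gene.

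The promoters were read because SREBP2 is known to act together with NF-Y and Sp1 at genes of this pathway. RefSeq promoter windows on GRCm38.p6, 250 bases before to 50 after a start, were found for 6 of the 8 enzymes, with Fdft1 and Sqle missing. Both strands were searched for the sterol regulatory element core TCACNCCAC, the NF-Y box CCAAT and the Sp1 box GGGCGG, none of which contains another. The sterol element in these exact letters was in 1 of 6 enzymes, Hmgcs1, 137 bases before its start, and in 1.24% of all 32851 promoters. Elements with other letters were not searched for, so a window without a match may still hold one. The NF-Y box was in 6 of 6 and in 37.4% of all promoters, or 41.1% of all genes with a promoter, and the Sp1 box was in 6 of 6 and in 35.7%, or 38.2% of genes. Of 10 other pathway genes with a window, 0 held the sterol element, 9 the NF-Y box and 9 the Sp1 box. A match of letters is no proof of a bound site, and the boxes were present both in enzymes called lower and in Lss and Dhcr7, which were not called.

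The 150 bases before the Hmgcs1 start (GRCm38.p6, chr13:119690201-119690350, plus strand) are shown because they hold all 3 motifs together, which are in capitals. CCGCCC and ATTGG are the Sp1 and NF-Y boxes read on the other strand.
Hmgcs1 promoter: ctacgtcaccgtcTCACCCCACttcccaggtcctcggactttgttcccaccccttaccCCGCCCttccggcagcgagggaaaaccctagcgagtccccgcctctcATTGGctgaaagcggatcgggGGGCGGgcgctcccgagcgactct

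The NF-Y box, like the Sp1 box, was found for each of the 6 enzymes when any window of a gene counts, although only 1 of the 3 windows of Dhcr7 held it. The last box before the RefSeq start is shown for each enzyme with 10 bases on either side. The sequences run 5′ to 3′ on the strand of the gene, with the box in capitals. They lie at chr13:119690296-119690320 (Hmgcs1), chr13:8885582-8885606 (Idi1), chr10:76531533-76531557 (Lss), chr5:4104712-4104736 (Cyp51), chr8:64733619-64733643 (Msmo1) and chr7:143830155-143830179 (Dhcr7, the start whose window holds the box), on the plus strand except for Cyp51 and Msmo1.
Hmgcs1 box: cccgcctctcATTGGctgaaagcgg
Idi1 box: ccaaggtgccATTGGctggcgaccg
Lss box: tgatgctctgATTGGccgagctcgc
Cyp51 box: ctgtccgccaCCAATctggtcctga
Msmo1 box: gtggggcggaCCAATtacgacaggc
Dhcr7 box: tccacttccgATTGGtcgtctgtga
The box shown reads ATTGG in Hmgcs1, Idi1, Lss and Dhcr7, of which Hmgcs1 and Idi1 were called, and CCAAT in Cyp51 and Msmo1, both called. By the GENCODE limits given above, the boxes of Hmgcs1 and Lss lie before the gene. Those of Idi1, Cyp51, Msmo1 and Dhcr7 lie inside it.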

How the data were processed

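Cortex RNA of 8 mice was depleted of rRNA, made into stranded total RNA libraries and sequenced in pairs. The authors used Trimmomatic on the reads and STAR for alignment (mm10), and the deposited FPKM values came from Cuffnorm on GENCODE basic genes, keeping genes with a mean of at least 1 FPKM and no 0. Their GENCODE release was earlier than the M21 used here for gene locations, overlaps and shared sequence. The sources used here give neither tool versions nor how strand entered the counting. Values are rounded to 0.1 FPKM and hold no counts, so the depth of each library is unknown and no counting interval was computed. A second set of estimates by Salmon and edgeR was not used here. The same filter left out 14 of 13996 rows.

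Log2(FPKM + 0.1) was fitted by diet with limma 3.58.1 (R 4.3.3), with a variance trend, after a check on simulated data, and p-values were adjusted over 13982 genes. A fold change on this scale understates the change of low genes. Each mouse counts as 1 replicate. Ratios within a mouse used exact permutation tests, added after seeing the data, with p-values adjusted in SciPy 1.17.1. Named genes were the 8 enzymes, genes of fixed lists and the 5 genes with the most similar deviations, besides overlapping and sequence-sharing genes, chosen later. The enzymes and lists were chosen with earlier results of these data known. Some genes of the lists are not reported here and stay out of the list counts, sums and covariates. Ch25h and the cerebellar gene Pcp2 were not matched in the table. Alternatives were other pseudocounts, filters, scalings and variance models, a replicate block, marker covariates and left-out mice.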

Additional observations from a re-analysis of the deposited data

Results flagged for a closer look

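Of the 40 genes of cholesterol metabolism looked at, in 80 groups of 4 mice, 2 groups held 1 mouse far from the others by Dixon's test, which chance alone gives in about 1 group in 20. Neither was among the 8 enzymes of the report. Acat2 was at 13.6 FPKM in high fat mouse 3 and at 13.1 FPKM in each of the other high fat mice, a gap of 0.5 FPKM at a rounding of 0.1. Fdps was at 34.1 FPKM in normal mouse 3 and at 39.7 to 40.2 FPKM in the other normal mice.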

How the results depend on the processing

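The 5 calls among the 8 enzymes were the same with a pseudocount of 0.5 or 1, no filter, median-ratio or quantile scaling and no variance trend. A mean of at least 5 FPKM left Idi1 untested and 4 of 7 called. Replicate numbers did not pair the mice (r of the deviations of same-numbered mice -0.11 to -0.03), and a replicate block kept the 5 calls, with 3390 of all genes called.

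With 1 mouse left out, 5 enzymes were called in each fit (1 higher, 4 lower). Their differences were -0.24 to -0.20 for Hmgcs1, -0.47 to -0.41 for Idi1, 0.21 to 0.28 for Fdft1, -0.058 to 0.0080 for Sqle (above 0 without HFD mouse 3), 0.07 to 0.11 for Lss, -0.45 to -0.41 for Cyp51, -0.37 to -0.29 for Msmo1 and -0.070 to 0.044 for Dhcr7 (above 0 without normal mouse 1, normal mouse 3 or HFD mouse 2). The other pathway genes gave 3 to 5 calls and all genes 3295 to 4619.

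Larger changes came with marker covariates, and their cause was not tested. With the cerebellar list 2 enzymes were called (0 higher, 2 lower), 1 other pathway gene and 464 of all genes, with Idi1 at -0.52, Fdft1 at 0.053 and Cyp51 at -0.34. With the myelin list 0 enzymes, 0 other pathway genes and 6 of all genes were called, with Hmgcs1 at -0.22, Idi1 -0.33, Fdft1 0.17, Lss -0.0065, Cyp51 -0.40, Msmo1 -0.35 and Dhcr7 0.23.

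The following were chosen after seeing the data. Without normal mice 2 and 3, 4 enzymes were called (0 higher, 4 lower) and 2743 of all genes, with Fdft1 at 0.15 and Dhcr7 at 0.044. With the cortical projection neuron list 0 enzymes, 0 other pathway genes and 240 of all genes were called, with Hmgcs1 at -0.27, Idi1 -0.47, Fdft1 0.064, Lss -0.029, Cyp51 -0.30, Msmo1 -0.48 and Dhcr7 0.17. With the striatal list limma called 0 enzymes, 0 other pathway genes and 0 of all genes, 281 of them at an unadjusted p below 0.05, with Hmgcs1 at 0.071, Idi1 -0.066, Fdft1 0.41, Sqle 0.15, Lss -0.086, Cyp51 -0.29, Msmo1 0.065 and Dhcr7 0.96. Depth is unknown, so values near 0.1 FPKM are the least certain, and 4 mice a diet leave intervals of up to 0.20 on either side for Dhcr7.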
